A study of Rattus norvegicus with 19 samples.

Results

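The liver clock of the rat was followed through 10 genes: the activators Bmal1 and Clock, the repressors Per1, Per2, Per3 and Cry1, the nuclear receptors Nr1d1 and Nr1d2, and the clock-driven genes Dbp and Usp2. They were chosen by name, and every non-control probe of an Agilent rat array that carried one of these names or its accession was taken (Bmal1 is written Arntl in the files). This gave 12 probes among 41012, 1 for each gene except Per3, which had 3. Each of 19 male Wistar rats had its liver RNA on 1 array: the rat's own RNA carried Cy5, an equimolar mixture of liver RNA carried Cy3, and dyes were never swapped. In the high protein group (HP, 6 rats) protein, largely casein, supplied 45% of the energy, fat 10% and carbohydrate 45%. In the high fat group (HF, 6 rats) fat supplied 60%, protein 20% and carbohydrate 20%. In the control group (Control, 7 rats) carbohydrate supplied 70%, fat 10% and protein 20%. All rats were housed singly, were 8 weeks old at the start and ate their diet for 4 months. The light period lasted 12 h, with light on at 8 pm per the labels, and the rats were decapitated in the fed state early in the morning. The labels do not settle which phase of the light cycle this was, nor the hour of each rat's death. Each liver is therefore 1 point of a daily rhythm, at which the level, the phase and the amplitude of a rhythm cannot be told apart.

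In mammals the clock is a loop of transcription and feedback. The BMAL1 and CLOCK proteins bind E-boxes and switch on the Per and Cry genes, whose proteins then hold BMAL1 and CLOCK back, and in a second loop NR1D1 and NR1D2 repress Bmal1 through sites called ROREs. In liver Bmal1 RNA runs nearly opposite in phase to that of Dbp and of the Per genes, and Dbp, a transcription factor that binds D-boxes, passes the rhythm on to metabolic genes; feeding times set much of this rhythm.

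Promoters in the RefSeq table of build GRCr8 covered 9 of the 10 genes (all but Cry1) in 11 windows, each running from 250 bases before a gene's start to 50 bases after it. They were searched on both strands for the E-box CACGTG, an E-box variant CACGTT, the D-box TTATGTAA and the RORE core TAGGTCA, whose matches do not overlap in these windows. The 5 windows below belong to the genes, among those covered, whose RNA differed most between rats or that hold a match, printed 5′ to 3′ on the gene's strand with matches in capitals. The other listed window of Nr1d1 is not printed.
Bmal1, chr1:176766078-176766377, plus strand: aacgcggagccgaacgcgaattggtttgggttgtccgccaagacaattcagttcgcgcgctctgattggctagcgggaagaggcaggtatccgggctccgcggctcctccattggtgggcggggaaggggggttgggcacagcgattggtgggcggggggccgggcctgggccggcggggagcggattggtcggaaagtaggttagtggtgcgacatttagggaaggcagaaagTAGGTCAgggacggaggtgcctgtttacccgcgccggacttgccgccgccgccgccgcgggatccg
Per2, chr9:99496944-99497243, minus strand: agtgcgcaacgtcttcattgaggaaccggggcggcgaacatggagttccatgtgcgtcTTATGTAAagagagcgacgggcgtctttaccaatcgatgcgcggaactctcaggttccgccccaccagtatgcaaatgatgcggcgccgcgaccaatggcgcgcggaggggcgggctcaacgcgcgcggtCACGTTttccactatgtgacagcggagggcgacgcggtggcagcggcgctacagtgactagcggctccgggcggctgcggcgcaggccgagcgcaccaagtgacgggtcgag
Nr1d1, chr10:84229405-84229704, minus strand: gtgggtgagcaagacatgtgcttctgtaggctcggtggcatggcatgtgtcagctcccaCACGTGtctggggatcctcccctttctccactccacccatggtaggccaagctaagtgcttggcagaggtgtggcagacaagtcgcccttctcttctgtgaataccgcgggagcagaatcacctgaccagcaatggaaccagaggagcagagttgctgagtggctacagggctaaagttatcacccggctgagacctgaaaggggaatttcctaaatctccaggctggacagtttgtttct
Dbp, chr1:105312006-105312305, plus strand: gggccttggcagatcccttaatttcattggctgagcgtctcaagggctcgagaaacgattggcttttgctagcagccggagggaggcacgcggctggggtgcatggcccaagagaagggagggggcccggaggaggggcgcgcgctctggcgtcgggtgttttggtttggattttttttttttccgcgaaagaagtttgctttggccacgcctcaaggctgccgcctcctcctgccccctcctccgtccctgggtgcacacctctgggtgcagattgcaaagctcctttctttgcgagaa
Usp2, chr8:53310620-53310919, plus strand: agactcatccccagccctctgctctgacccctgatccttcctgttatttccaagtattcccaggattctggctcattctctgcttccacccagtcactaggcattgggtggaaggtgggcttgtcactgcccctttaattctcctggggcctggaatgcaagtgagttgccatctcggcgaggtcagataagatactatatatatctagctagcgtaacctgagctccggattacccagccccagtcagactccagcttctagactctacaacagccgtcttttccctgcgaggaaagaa
The Bmal1 window held the RORE core, beginning 16 bases before the start. Per2 held the D-box, beginning 192 bases before the start, and CACGTT, beginning 62 bases before it. Nr1d1 held CACGTG, beginning 191 bases before the start shown, and at its other listed start CACGTT on the opposite strand, 174 bases before. The windows of Dbp, Usp2, Per1, Per3, Clock and Nr1d2 held none of these letters. Among all 33469 promoters of the same length, 6.42% held CACGTG, 4.83% CACGTT, 0.893% TTATGTAA and 2.63% TAGGTCA. A match describes the letters of a window and nothing about binding in these livers.

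Values below are log2 ratios of a rat's liver RNA to the pool, so a value of 1 is 2 times the pool. They lie on a scale relative to the pool and do not rank genes by level. A gene entered the test if the scanner software called its Cy5 signal well above background in 6 or more of the 19 livers; 9 of the 10 did, and Per3 did not. The 10 hepatocyte markers checked were all above background on every array. Rat Control 6 stood apart in the lymphocyte markers: the median log2 ratio over the 7 of 17 that were measured was 2.29 in this rat, between -0.80 and -0.35 in HP, between -0.84 and -0.60 in HF and between -0.68 and -0.56 in the other Control rats. The spread of log ratios over all features of its array was 0.44 (SD), against 0.20 to 0.289 on the other arrays. Rat HP 3 stood apart from the other HP rats in the clock genes themselves, as given gene by gene below. The arrays lay on 5 slides, each scanned once, and no slide held rats of 1 group only. HP rats lay on slides 1, 4 and 5, and HF rats on slides 1, 2 and 3. These 2 groups shared only slide 1, with 2 HP rats and 1 HF rat. Diet and slide are therefore hard to tell apart in every HP against HF value below. With slide as a fixed block, the features called in HP against HF fell from 1559 to 343. Numbers of arrays limit the precision of every value.

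Usp2 was the only clock gene of the 9 that passed the test in any comparison, and it rose in HF livers against Control. Over all 22222 features, limma called 3.63% in HF against Control, 0.414% in HP against Control and 7.02% in HP against HF at an adjusted p under 0.05. The clock genes gave 1 of 9, 0 of 9 and 0 of 9. Before adjustment, 5 of the 9 had p under 0.05 in HF against Control (Usp2, Per2 and Dbp higher, Bmal1 and Cry1 lower), beside 15.8% of all features, 7.97% higher and 7.8% lower. In HP against HF there were 3 (Bmal1 higher, Dbp and Usp2 lower), beside 20% of all features, 9.59% higher and 10.4% lower. In HP against Control there were 0, beside 14.3%. For none of the 9 genes did the values of 2 groups fail to overlap, while this happened for 1.97% of features in HF against Control, 0.779% in HP against Control and 5% in HP against HF. By the moderated F test over the 3 diets, only Usp2 passed (adjusted p 0.0427), beside 6.57% of all features; the other 8 had adjusted p between 0.157 and 0.929. The comparisons share rats, so their counts are not independent.

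**Figure D1:**
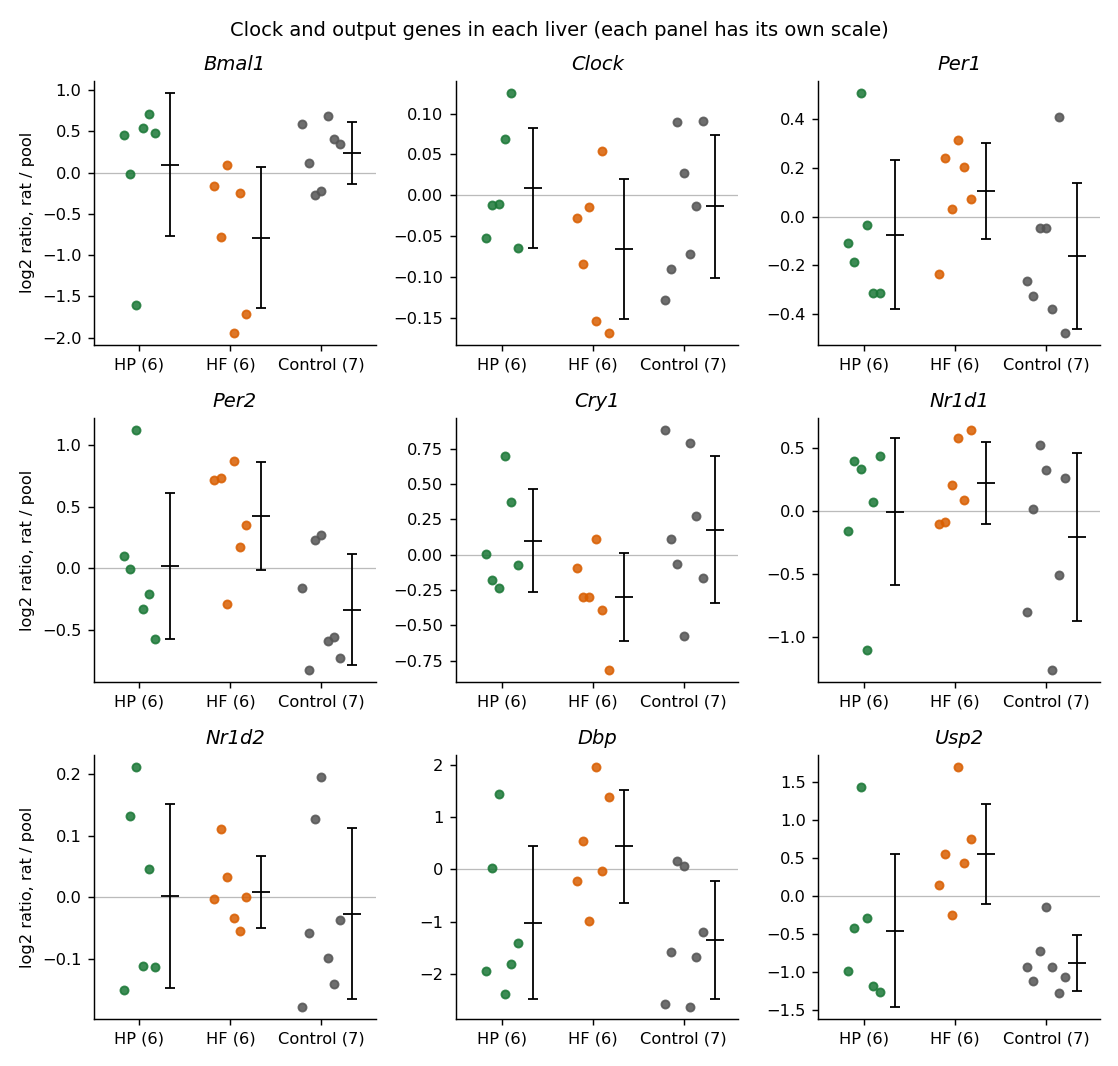
Log2 ratio of each rat's liver RNA to the pool (vertical axis, a scale per panel) for the 9 kept clock genes in HP (6 rats), HF (6 rats) and Control (7 rats). Points are rats in order of their number, and the bar beside them is the mean with 1 SD. In the Usp2 panel 5 of 6 HF rats lie above all 7 Control rats, and the 1 HP point at 1.43 is rat HP 3.

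Bmal1, the activator on which the rhythm depends, was read by a probe at chr1:171161969-171162028 (rn4, as in the file headers) that was above background on all 19 arrays. In HP the ratios had a lowest value of -1.61, a median of 0.47 and a highest value of 0.71. HF ratios had a lowest value of -1.94, a median of -0.51 and a highest value of 0.095, and Control ratios -0.27, 0.35 and 0.69. Of the 6 HF rats, 3 lay below all 7 Control rats, and 5 of the 6 HP rats lay at -0.017 or above; the other was HP 3. The means were 0.095 ± 0.87 in HP, -0.79 ± 0.85 in HF and 0.24 ± 0.38 in Control (SD, n = 6, 6 and 7). The log2 fold change was -1.03 ± 0.37 (SE; 95% interval -1.79 to -0.26) for HF over Control, with an adjusted limma p of 0.151. It was 0.89 ± 0.38 for HP over HF (adjusted limma p 0.189) and -0.14 ± 0.37 for HP over Control (adjusted limma p 0.886; 95% interval -0.91 to 0.62). Without HP 3 the HP over HF change became 1.23 ± 0.31 and passed (adjusted limma p 0.0237), and the HP over Control change turned to 0.20 ± 0.30. HP 3 was picked out by its values in these same genes. Of the 19 omissions of 1 rat, only this 1 passed in HP over HF (adjusted limma p up to 0.391). Within the slides that held both groups, HF minus Control was -0.75, -0.29 and -1.03 (slides 1, 2 and 3). These slides held 1, 2 and 3 HF rats and 1, 2 and 1 Control rats.

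Clock, which encodes the partner of BMAL1, was near the limit of measurement: its probe (chr14:34247245-34248295) was above background in Cy5 on 8 of 19 arrays (2 HP, 3 HF and 3 Control). In Cy3, the pool, it was above background on 0 of 19. Clock ratios ran between -0.064 and 0.13 in HP, between -0.17 and 0.054 in HF and between -0.13 and 0.091 in Control. Of the HP rats 1 lay above every Control rat, and of the HF rats 2 lay below every Control rat. The log2 fold change was 0.023 ± 0.051 for HP over Control and -0.052 ± 0.051 for HF over Control (SE), with adjusted limma p values of 0.867 and 0.682. The 95% intervals, -0.085 to 0.13 and -0.16 to 0.056, describe a probe that is mostly dim.

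Among the repressors, Per2 had the largest estimated difference. Its probe (chr9:90645610-90645669) gave a lowest, median and highest ratio of -0.57, -0.11 and 1.12 in HP, of -0.29, 0.54 and 0.87 in HF and of -0.83, -0.56 and 0.27 in Control. Of the 6 HF rats, 4 lay above every Control rat, and the highest HP value was again that of HP 3. The HF over Control log2 fold change was 0.77 ± 0.25 (SE; 95% interval 0.23 to 1.30), with an adjusted limma p of 0.115. Without HP 3, which enters this contrast only through the shared estimate of the spread, the same change had an adjusted limma p of 0.0467. This was the only 1 of 19 omissions that passed (adjusted limma p up to 0.246). The HP over Control change was 0.36 ± 0.25 (adjusted limma p 0.548) and fell short of the test also without HP 3, where it was 0.13 ± 0.22. The HP over HF change was -0.41 ± 0.26 (adjusted limma p 0.43).

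Per1, a repressor whose gene responds to light and to glucocorticoids, varied less. Its ratios (probe at chr10:55867840-55868424) had a lowest, median and highest value of -0.31, -0.15 and 0.51 in HP, of -0.23, 0.14 and 0.32 in HF and of -0.48, -0.26 and 0.41 in Control. The top HP value, that of HP 3, lay above every Control rat, and the other rats of both diets lay within the Control range; the top Control value was that of Control 6, the rat with high lymphocyte markers. For HF over Control the log2 fold change was 0.27 ± 0.14 (SE, adjusted limma p 0.388), and it was 0.36 ± 0.12 without Control 6 (adjusted limma p 0.128). The part of those markers in the value was not tested. For HP over Control it was 0.087 ± 0.14 (adjusted limma p 0.812) and -0.030 ± 0.13 without HP 3, and for HP over HF -0.18 ± 0.15 (adjusted limma p 0.57).

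Cry1, a strong repressor of BMAL1 and CLOCK, had estimates of the opposite sign. Its probe (chr7:20708985-20709044) gave a lowest, median and highest ratio of -0.24, -0.035 and 0.70 in HP, of -0.82, -0.30 and 0.11 in HF and of -0.58, 0.11 and 0.88 in Control. Only 1 HF rat, HF 6, lay below every Control rat. The HF over Control log2 fold change was -0.47 ± 0.21 (SE; 95% interval -0.92 to -0.028) with an adjusted limma p of 0.283. The HP over Control change was -0.080 ± 0.21 (adjusted limma p 0.891) and the HP over HF change 0.40 ± 0.22 (adjusted limma p 0.345).

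Per3, whose absence leaves the rhythm largely in place in the mouse, was too dim for the test. Its 3 probes (chr5:168152839-168152847, chr5:168152851-168152910 and chr5:168184060-168184119) were above background in Cy5 on 1, 5 and 1 of 19 arrays. The middle one was above background in 4 of 6 HF rats, 1 of 6 HP rats and 0 of 7 Control rats. The other 2 were above background on 1 HF array and on 1 Control array. No fold is given, since HF arrays below background give only a bound as well.

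The nuclear receptors that repress Bmal1 gave no call. Nr1d1 ratios (probe at chr10:87543165-87543519) had a lowest, median and highest value of -1.11, 0.20 and 0.44 in HP, of -0.11, 0.14 and 0.64 in HF and of -1.26, 0.0099 and 0.52 in Control. The 6 HF rats had the narrowest range, and the lowest HP and Control values were those of rats HP 4 and Control 5. The log2 fold change was 0.43 ± 0.28 for HF over Control (SE, adjusted limma p 0.509), 0.20 ± 0.28 for HP over Control (adjusted limma p 0.772) and -0.22 ± 0.29 for HP over HF (adjusted limma p 0.765). Single rats moved these estimates: HP over Control was 0.42 without HP 4 and 0.027 without Control 5, and HP over HF was -0.0047 without HP 4 and -0.31 without HP 6. Nr1d2, its close relative, was above background in Cy5 on 14 of 19 arrays (4 HP, 6 HF and 4 Control) and in Cy3, the pool, on 3 of 19. Its ratios stayed between -0.18 and 0.21 in all 19 rats, and no comparison had an adjusted limma p under 0.849. Its HP over Control estimate was 0.029 ± 0.069 (SE), and -0.013 ± 0.068 without HP 3. With a pool signal this dim, the narrow range of Nr1d2 does not show a steady level.

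Dbp differed more between rats than any other clock gene. Its probe (chr1:96178020-96178079) gave a lowest, median and highest ratio of -2.37, -1.61 and 1.43 in HP, of -0.98, 0.26 and 1.95 in HF and of -2.63, -1.58 and 0.15 in Control. The ratio of the highest rat (HF 4) was 23.9 times that of the lowest (Control 5). Of the 6 HF rats, 3 lay above all Control rats, and the other 3 lay below the highest Control rat. The means were -1.01 ± 1.45 in HP, 0.44 ± 1.08 in HF and -1.35 ± 1.12 in Control (SD, n = 6, 6 and 7). The HF over Control log2 fold change of 1.79 ± 0.62 (SE, 3.46-fold; 95% interval 0.49 to 3.09) was the largest estimate among the clock genes but had an adjusted limma p of 0.139. The HP over HF change was -1.46 ± 0.65 (adjusted limma p 0.208). The HP over Control change was 0.33 ± 0.62 (adjusted limma p 0.834), and -0.15 ± 0.56 without HP 3. Within slides 1, 2 and 3, HF minus Control was 2.35, 0.54 and 0.95, from 1, 2 and 3 HF rats and 1, 2 and 1 Control rats.

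Usp2 encodes a ubiquitin-specific protease that acts on clock proteins and is itself driven by the clock in liver. Its probe (chr8:47075059-47075118) gave a lowest, median and highest ratio of -1.26, -0.70 and 1.43 in HP, of -0.25, 0.50 and 1.69 in HF and of -1.27, -0.93 and -0.14 in Control. All HF rats but HF 3 lay above every Control rat, and of the HP rats only HP 3 did. The means were -0.45 ± 1.00 in HP, 0.56 ± 0.66 in HF and -0.88 ± 0.37 in Control (SD, n = 6, 6 and 7). The HF over Control log2 fold change was 1.44 ± 0.36 (SE, 2.71-fold; 95% interval 0.68 to 2.19), with an adjusted limma p of 0.0277; 1.84% of all features were called higher in this comparison. The HP over Control change was 0.43 ± 0.36 (adjusted limma p 0.618) and 0.051 ± 0.27 without HP 3. The HP over HF change was -1.01 ± 0.37 (adjusted limma p 0.116), and -1.39 ± 0.28 without HP 3, when it passed (adjusted limma p 0.00506). Among the 19 omissions of 1 rat, only that of HP 3 passed in HP over HF (adjusted limma p up to 0.261). HP 3 stood out by its Usp2 value itself, so this pass is no independent result. With all rats of both groups the exact permutation p for HP over HF was 0.0671 (unadjusted).

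The Usp2 call had little margin. Slides 1, 2 and 3 held 1, 2 and 3 HF rats and 1, 2 and 1 Control rats. Within them the HF minus Control difference was 1.08, 0.78 and 1.68, but with slide as a fixed block the change was 1.19 ± 0.43 (SE) and the adjusted limma p 0.26. With the background step fitted on every spot the change was 1.19 ± 0.35 (SE) and the adjusted limma p 0.0603. Leaving out 1 rat at a time, it passed in 13 of 19 fits and missed the threshold without Control 1, Control 2, HF 2, HF 4, HF 5 or HF 6 (adjusted p up to 0.0766). The value without Control 6 was 1.37 ± 0.37 (SE, adjusted limma p 0.0418).

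Single markers of some cell types passed in the same comparisons. These genes were named after their values were seen. In whole liver, fewer cells of a type and less RNA per cell cannot be told apart. Of 7 stellate cell markers, 2 rose in HF against Control, beside 1.84% of all features: Rgs5 (0.60 ± 0.083, SE, adjusted limma p 0.000359) and Reln (0.52 ± 0.098, SE, adjusted limma p 0.0035). Rgs5 also rose in HP against Control (0.45 ± 0.083, SE, adjusted limma p 0.0236), where 0.414% of all features were called. Reln was lower in HP than in HF (-0.35 ± 0.10, SE, adjusted limma p 0.044), as were 3.4% of all features. Of the 7, 5 had positive estimates in HF against Control and 4 in HP against Control. The median log2 ratio over the 7 ran between -0.037 and 0.27 in HP, between 0.0073 and 0.57 in HF and between -0.25 and 0.21 in Control. Of 10 hepatocyte markers, Cps1 rose in HP against Control (0.62 ± 0.13, SE, adjusted limma p 0.0328) and against HF (0.60 ± 0.13, SE, adjusted limma p 0.00768), and Ttr rose in HP against HF (0.33 ± 0.063, SE, adjusted limma p 0.00281). Of all features, 0.414% were called in HP against Control, and 3.62% were called higher in HP against HF. Only 6 of the 10 markers had positive estimates in HP against Control, and 6 in HP against HF. The median over the 10 ran between 0.078 and 0.33 in HP, between 0.13 and 0.29 in HF and between 0.098 and 0.27 in Control. No measured marker of lymphocytes (7), macrophages (7), endothelial cells (6), bile duct cells (4) or red blood cells (2) passed in any of the 3 comparisons. The shares of all features called were 0.414% in HP against Control, 3.63% in HF against Control and 7.02% in HP against HF. The part of cell makeup in the clock genes' values was not tested.

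**Figure D2:**
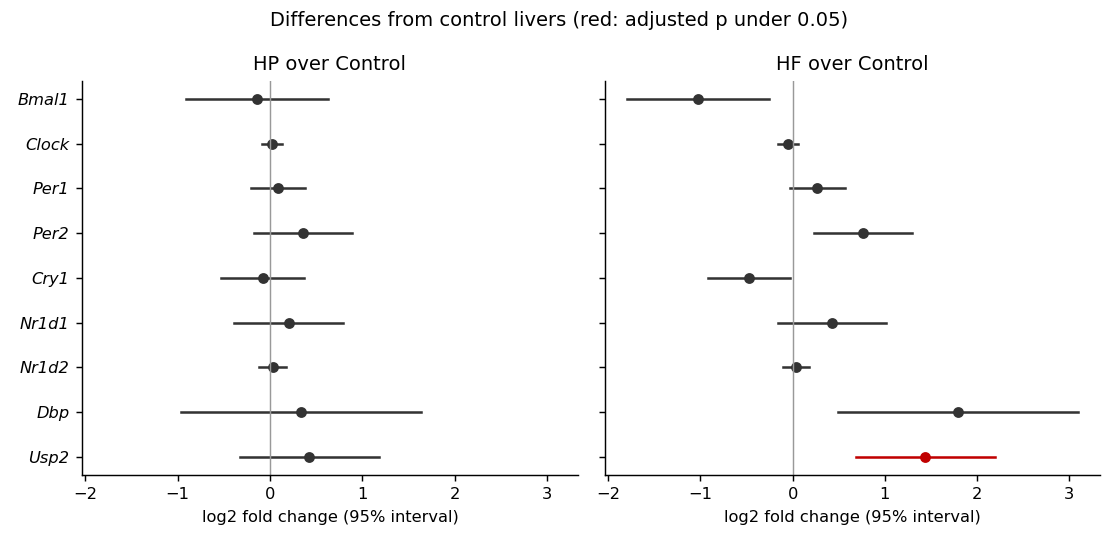
Log2 fold change of each kept clock gene (horizontal axis; points) with its 95% interval (lines) for HP over Control (left) and HF over Control (right), from the limma model over 19 rats. In the HF panel Usp2 (red) is the only gene past the adjusted threshold, while the intervals of Bmal1, Per2, Cry1 and Dbp also leave out 0; in the HP panel every interval includes 0.

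Rats on 1 diet differed in these genes far more than in most others. With diet group means removed, the SD of Dbp was 1.23, which placed it 18th of 22222 features, against a median of 0.136 over all features. Bmal1 (0.72) was 206th, Usp2 (0.71) 226th, Nr1d1 (0.55) 453rd, Per2 (0.50) 585th and Cry1 (0.42) 904th. Per1 lay at 0.27, while Nr1d2 (0.12) and Clock (0.083), the dim probes, lay below the median.

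The rats that were low in Bmal1 were high in Dbp and Usp2. After removal of group means, Bmal1 correlated with Dbp at r = -0.91 (Spearman's rho -0.88; permutation p 1e-05, the smallest that the resampling can give; adjusted 8e-05 over 8 relations; n = 19). With Usp2 r was -0.88 (rho -0.76; permutation p 6e-05, adjusted 0.00024). With Per2 it was -0.71 (rho -0.58; permutation p 0.0035, adjusted 0.00933). Nr1d2 (r -0.52, rho -0.41), Nr1d1 (r -0.53, rho -0.57) and Per1 (r -0.57, rho -0.55) also ran opposite to Bmal1, with adjusted permutation p values for r of 0.0189, 0.0247 and 0.0247 and for rho of 0.0615, 0.0147 and 0.0257. Cry1 (r 0.42, rho 0.50) and Clock (r 0.31, rho 0.40) had positive values that missed the threshold for r (adjusted permutation p 0.0607 and 0.212). By rho Cry1 passed (adjusted permutation p 0.0284) and Clock did not (0.115), so the calls of Nr1d2 and Cry1 depend on the measure. The pool was above background on 3 of 19 arrays for Nr1d2 and on 0 of 19 for Clock, which limits both correlations.

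After removal of group means, the rats farthest from the median of Bmal1 were HP 3 and HF 4. Without them the correlation with Dbp was -0.86, that with Usp2 -0.65, that with Nr1d1 -0.57 and that with Nr1d2 -0.48, all past the adjusted threshold. The relations with Per2 (-0.44, adjusted permutation p 0.168) and Per1 (-0.21, adjusted permutation p 0.419) rested on these 2 rats, while Cry1 reached 0.67 (adjusted permutation p 0.00228). Each slide held 3 or 4 arrays, too few for a correlation of its own. With slide effects removed as well, the values were -0.88 for Dbp, -0.88 for Usp2, -0.76 for Per2 and -0.58 for Nr1d2, and those for Per1 (-0.42, adjusted permutation p 0.122) and Nr1d1 (-0.30, adjusted permutation p 0.249) no longer passed. In this setting the resamples ran over all rats and not within groups, so its p values are approximate.

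Within each diet the relation of Bmal1 with Dbp was r = -0.93 in HP, -0.98 in HF and -0.96 in Control (exact permutation p 0.0153, 0.00139 and 0.00179; adjusted over 6 relations 0.0229, 0.00358 and 0.00358). Spearman's rho was -0.71, -1.0 and -0.96 (exact permutation p 0.136, 0.00278 and 0.00278, adjusted 0.204, 0.00556 and 0.00556), so in HP the call depended on the measure. Without the 2 rats farthest from the group's median of Bmal1 r was -0.079 in HP, -0.95 in HF and -0.81 in Control, so that the HP value rested on those rats. With Usp2 r was -0.94 in HP, -0.90 in HF and -0.62 in Control (exact permutation p 0.0458, 0.00139 and 0.128; adjusted 0.055, 0.00358 and 0.128). There rho was -0.54, -1.0 and -0.36 (exact permutation p 0.297, 0.00278 and 0.444, adjusted 0.356, 0.00556 and 0.444). Without 2 rats the r values with Usp2 became -0.11, -0.88 and 0.59, so only the HF relation kept its size. Dropping rats by their Bmal1 values narrows the range of Bmal1, and the HP rats left lay between 0.46 and 0.71. With so few rats and so narrow a range, a value near 0 does not show that a relation is absent.

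**Figure D3:**
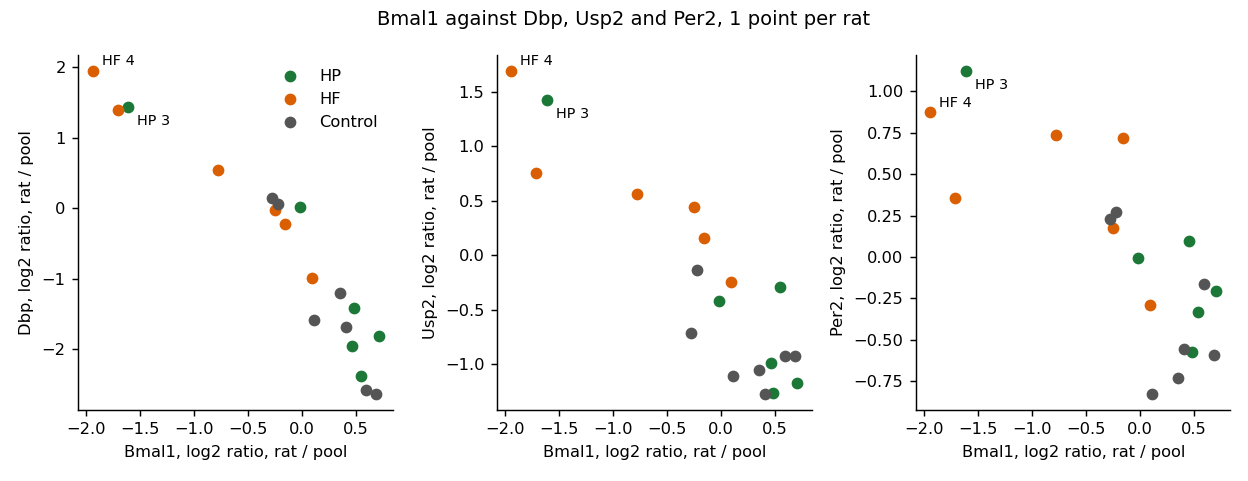
Bmal1 (horizontal axis) against Dbp, Usp2 and Per2 (vertical axes), all as log2 ratio of a rat's liver RNA to the pool; each point is 1 rat, coloured by diet. HF and Control rats low in Bmal1 are high in Dbp, as is HP 3, and HF 4 and HP 3 hold 2 of the 3 lowest Bmal1 values, -1.94 and -1.61.

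The other pairs are given as a description, with the same 19 rats in each. Dbp ran with Usp2 (r = 0.78), Nr1d1 (0.73), Nr1d2 (0.73) and Per2 (0.72), and Per2 ran with Usp2 (0.79). Cry1 ran opposite to Nr1d1 (-0.79), Dbp (-0.62) and Nr1d2 (-0.61) but hardly followed Usp2 (-0.19) or Per1 (-0.15). Nr1d1 and Usp2, which both ran with Dbp, were themselves only loosely related (0.22). Clock was near 0 with most genes, from -0.17 with Usp2 to 0.32 with Nr1d2. All values share the arrays and the pool.

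**Figure D4:**
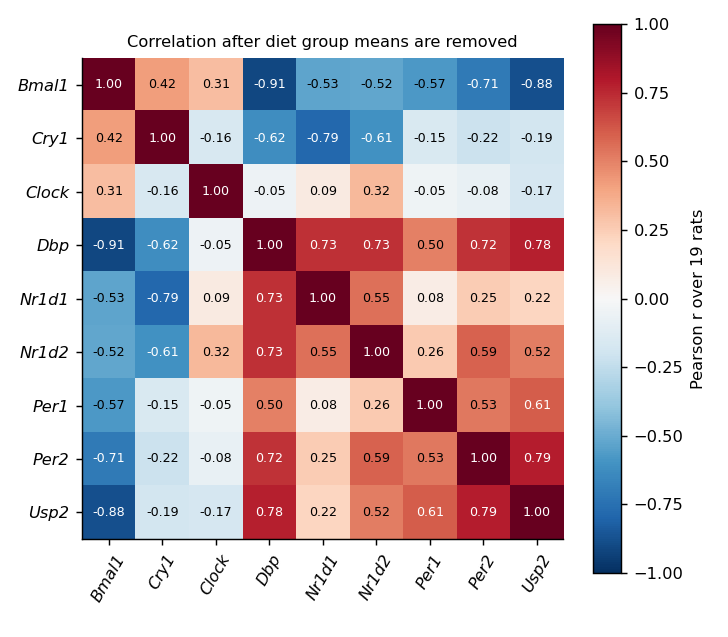
Pearson correlation of each pair of kept clock genes over 19 rats after diet group means were removed (colour and printed value). Bmal1 is negative with Dbp (-0.91), Usp2 (-0.88) and Per2 (-0.71), and Cry1 is most negative with Nr1d1 (-0.79).

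Genes whose pattern over the 19 rats was most like that of Bmal1 were sought among 10785 other named features, again with group means removed and with no test. The highest correlations with Bmal1 were those of Clpx (0.92), Dapk1 (0.91), Rnf8 (0.89), Tubb6 (0.89) and Ncapg2 (0.85). The lowest were those of Gpr146 (-0.89), Ifrd2 (-0.88), Bri3 (-0.87), Bhlhe41 (-0.87), a transcriptional repressor within the clock, and Herpud1 (-0.87). For Dbp the highest were Hsd17b2 (0.95), a steroid dehydrogenase, Herpud1 (0.93), Shmt1 (0.92), Tef (0.90), a D-box binding factor related to DBP, and Gpr146 (0.88). The lowest for Dbp were Tubb6 (-0.89), Chka (-0.89), Clpx (-0.88), Rnf8 (-0.88) and Klhdc8a (-0.86). The 2 sets of 10 had 5 genes in common (Clpx, Gpr146, Herpud1, Rnf8 and Tubb6), which is 50% of each. None of these 15 genes passed the test in HF over Control (adjusted limma p 0.061 or more) or in HP over Control (0.325 or more). Of all features, 3.63% and 0.414% passed in these comparisons, so among so few genes the absence of a call says little.

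Of 14 further transcriptional clock genes, 10 were measured and none passed in any comparison, with 0, 4 and 5 at an unadjusted limma p under 0.05 in HP over Control, HF over Control and HP over HF, beside 14.3%, 15.8% and 20% of all features. The median log2 fold change over the 10 was 0.011, -0.0097 and 0.037 in these comparisons, against -0.0098, -0.0085 and -0.0033 over all features. Tef had the largest HF over Control estimate of the 3 with the smallest F-test p, 0.66 ± 0.20 (SE, adjusted limma p 0.0789). Rora, which activates Bmal1 through the RORE, had -0.17 ± 0.067 (SE, adjusted limma p 0.204), and Npas2, a relative of Clock, had -0.19 ± 0.075 (SE, adjusted limma p 0.201).

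Of 19 enzymes and cofactors that modify clock proteins or act with them, 18 were measured, with 1 call in HP against Control (lower, as were 0.14% of all features) and 3 in HP against HF (1 higher and 2 lower, beside 3.62% and 3.4% of all features). Ncor1, the corepressor through which NR1D1 silences its targets, fell in HP against Control (-0.49 ± 0.10, SE, adjusted limma p 0.0436) and against HF (-0.47 ± 0.11, SE, adjusted limma p 0.0112), and 5 of 6 HP rats lay below all Control rats. Fbxw11, part of a ubiquitin ligase, also fell in HP against HF (-0.29 ± 0.064, SE, adjusted limma p 0.00907). Csnk1d, a kinase of the PER proteins, rose in HP against HF (0.22 ± 0.060, SE, adjusted limma p 0.0333). Crebbp, an acetyltransferase, had -0.31 ± 0.089 (SE) for HP over Control and missed the threshold (adjusted limma p 0.129). In HF over Control 0 of the 18 passed and 0 had an unadjusted limma p under 0.05, beside 3.63% and 15.8% of all features. The median over the 18 was -0.054 in HP over Control, -0.032 in HF over Control and -0.055 in HP over HF.

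Rhythmic output genes of the liver other than Dbp and Usp2 had 2 calls among 14 measured of 18 in HF over Control, both higher, beside 1.84% of all features called higher. Nr1i3, a xenobiotic receptor, rose by 1.19 ± 0.22 (SE, adjusted limma p 0.00274) and Cyp7a1, which controls the first step from cholesterol to bile acids, by 2.24 ± 0.52 (SE, adjusted limma p 0.018). Nr1i3 was lower in HP than in HF livers (-1.09 ± 0.23, SE, adjusted limma p 0.0055), the only call of that comparison, in which 3.4% of all features were lower, and 0 of 14 passed in HP over Control, beside 0.414%. Wee1, a cell cycle kinase with E-boxes in its promoter in the mouse, had 0.53 ± 0.16 for HF over Control (SE, adjusted limma p 0.0741). The median over the 14 was 0.41 in HF over Control, 0.081 in HP over Control and -0.14 in HP over HF.

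Glucocorticoids and temperature are body-wide signals that reach the liver clock, and genes that answer to them were read beside it. Of 13 glucocorticoid-responsive genes, 3 rose in HP against HF, beside 3.62% of all features: Tat, a tyrosine-degrading enzyme (1.02 ± 0.20, SE, adjusted limma p 0.00286), Sgk1, a kinase (1.1 ± 0.32, SE, adjusted limma p 0.0449), and Dusp1, a phosphatase (0.92 ± 0.27, SE, adjusted limma p 0.0421). Sgk1 fell in HF against Control (-1.42 ± 0.31, SE, adjusted limma p 0.0119), as did 1.8% of all features, and 0 of 13 passed in HP against Control, beside 0.414%. The list's median was -0.056 in HP over Control, 0.11 in HF over Control and -0.19 in HP over HF, so in the last the median and the calls differ in sign. Of 10 measured heat shock and cold-induced genes, 0 passed in any of the 3 comparisons, with 1, 0 and 2 at an unadjusted limma p under 0.05 in HP over Control, HF over Control and HP over HF, beside 14.3%, 15.8% and 20% of all features; Hspe1, Hsp90ab1 and Hspa1a had the smallest F-test p, and the lowest adjusted limma p of these 3 genes was 0.213. The part of either signal in the clock genes' values was not tested.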

How the data were processed

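The authors deposited scanner output of Agilent Feature Extraction 10.5.1.1 (per the submitters' processing notes), with mean, processed and local background intensity per spot and channel, per the file headers. The authors also deposited a matrix of log2 values for 22764 features with a median of 8.20 in each array; how it was made is not given in the sources used here, its centred values followed the log ratios used here (r across features 0.912 to 0.976), and it served as an alternative.

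Background was corrected by normexp (offset 50) after 40 spots whose local background exceeded their signal by over 50 were dropped, loess was applied to each array's log2(Cy5/Cy3), outlier spots were dropped and spots of a probe averaged. Of 41012 probes, 19839 were named through the RefSeq table or the files. The scanner software called Cy5 well above background in 6 or more livers for 25292 probes; the brightest on average stood for its gene, which gave 22222 features. limma 3.58.1 in R 4.3.3 fitted 1 model over the 3 diets (16 residual and 3.25 prior degrees of freedom), two-sided, with Benjamini-Hochberg adjustment over all features; the step was tested on simulated data. Correlations used 100000 resamples, drawn within groups in the main setting and without HP 3 and HF 4. With no group means removed, and with slide effects removed, they ran over all 19 rats. Within each diet the test was exact. The labels give separate rats and no pairing; after removal of group means, like-numbered rats of different groups correlated at -0.0102 on average (18 pairs), so numbers were not used as pairs.

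Named genes were the 10 clock genes, the called members and the 3 with the smallest F-test p of each of 5 lists (other clock genes, modifiers, outputs, glucocorticoid-responsive and heat shock genes), and the 5 features with the highest and the 5 with the lowest correlation with Bmal1 and with Dbp. Genes, lists and the background step were chosen with earlier results of these data known. Alternatives concerned background, normalization, filter, slide, replicate number, samples, weights, the deposited values and single rats.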

Additional observations from a re-analysis of the deposited data

Results flagged for a closer look

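Rat HP 3 lay far from the other 5 HP rats in 3 clock genes, by the gap to its nearest neighbour over the group's range. In Bmal1 its log2 ratio of -1.61 was the lowest, with the next HP rat at -0.017. In Per1 its 0.51 was the highest, with the next at -0.035, and in Usp2 its 1.43 was the highest, with the next at -0.29. These were 3 of 27 gene and group combinations examined; chance alone flags about 1 in 20, and the genes are correlated, so the 3 are not independent. Its array had a spread of log ratios within the range of the other arrays.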

How the results depend on the processing

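Under 13 other settings that can change log ratios or tests, 332 of 339 single-gene values kept direction and side of the threshold. Of 513 values with 1 rat left out, 493 did, 11 turned sign, 6 were lost and 3 gained. Usp2 in HF over Control passed in 10 of 13; it missed with normexp on every spot (1.19, adjusted p 0.0603), slide as a fixed block (1.19, 0.26) and the replicate block (1.41, 0.0561), each leaving 0 clock genes called. Nr1d2 in HP over HF turned to 0.0048 (normexp on every spot), 0.078 (slide fixed) and 0.0039 (array weights), and Nr1d1 to 0.27 (slide fixed). Genes called over all features in HP over Control (92) became 55 with normexp on every spot (26 higher, 29 lower), 42 with processed signals, 56 with Cy5 alone, 20 with slide fixed, 162 with the replicate block, 32 with only the 2 groups compared and 234 with array weights; the main split of 61 higher and 31 lower was 44 and 12 with Cy5 alone, 17 and 3 with slide fixed and 69 and 8 with the deposited values. In HF over Control (807) they became 443 with slide fixed, and in HP over HF (1559) 343 with slide fixed and 2665 with array weights. Leaving out 1 rat, the calls ran between 17 and 373 in HP over Control, 604 and 911 in HF over Control and 1147 and 2191 in HP over HF, and clock genes called between 0 and 0, 0 and 2, and 0 and 2. All 3 calls gained came without HP 3. Without 1 rat Bmal1 in HP over Control ran between -0.26 and 0.20, Per1 between -0.030 and 0.18, Dbp between -0.15 and 0.61, Nr1d2 between -0.013 and 0.066, Cry1 between -0.21 and 0.038 and Clock between -0.00040 and 0.040; Nr1d2 in HP over HF ran between -0.048 and 0.024. The exact permutation test (two-sided, unadjusted) gave p 0.00175 for Usp2 in HF over Control, and 0.0845 for Cry1 there, 0.113 for Bmal1, 0.0844 for Dbp and 0.0671 for Usp2 in HP over HF, where limma's unadjusted p was under 0.05. With no group means removed, Bmal1 and Cry1 correlated at 0.57 (adjusted permutation p 0.014); the relations lost were -0.42 (Per1) and -0.30 (Nr1d1) with slide removed, and -0.21 (Per1) and -0.44 (Per2) without 2 rats, where Cry1 gained (0.67). Replicate numbers share only a number: 5 of 19 rats correlated best with their own number. Loess followed by Aquantile leaves log ratios as they are and is not counted. Apart from fewer samples, the causes were not tested. Signal over background limits Clock, Nr1d2 and Per3.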
